A study of Mus musculus with 2 samples.

Results

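A group of 9 genes of the actin cytoskeleton and of cell adhesion was followed in the non-polyadenylated (NPA) RNA of R1 mouse embryonic stem cells (ESCs) and of neural progenitor cells (NPCs) derived from them. They are *Actb*, *Actg1*, *Actn1*, *Actn4*, *Flna*, *Myh9*, *Cald1*, *Tln1* and *Vcl*, 9 of the 37310 genes that GENCODE release M1 places on mm9. Reads were counted on the strand of the gene over its exons, and all 9 had at least 10 reads in the pooled libraries, as did 14859 genes in all. The genes were selected on their NPC to ESC ratios of reads, so those ratios describe the members and were not tested.

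ESCs of the R1 line, at passage 18, were kept with LIF on mouse embryonic fibroblasts whose division had been stopped with mitomycin C, so feeder RNA can be present. For NPCs the same line spent 4 days as embryoid bodies without LIF, was then plated on poly-L-ornithine and fibronectin with insulin, transferrin and selenium, and was gathered on day 7. RNA that bound to oligo(dT) was removed before sequencing, so every value below is of the RNA that this step left behind. There was 1 library per cell type, so each ratio compares 2 libraries and has no replicate check. The ESC library held 4271306 reads and the NPC library 4399729. The interval given with each value is a 95% interval of counting error only, with each read taken as independent. Repeated fragments could not be told apart from abundant RNA, and where reads repeat a fragment the interval is too narrow. In RNA pooled from many cells, fewer cells of a type and less RNA per cell cannot be told apart, nor can a change in the RNA of a gene from a change in the part of it that escaped oligo(dT).

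Actin monomers assemble into filaments that carry force and give a cell its shape. Myosin II pulls on these filaments, tropomyosin and caldesmon lie along them, and α-actinins and filamins bind them into bundles and networks. At focal adhesions talin links integrin receptors to the filaments and vinculin strengthens that link. β-actin and γ-actin, the cytoplasmic actins, are nearly the same protein and come from separate genes, *Actb* and *Actg1*, both of which have many processed copies in the mouse genome. Serum response factor (SRF), which binds a promoter motif called the CArG box, is known to drive many genes of this group when free actin monomers run low.

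The 2 actin coding sequences show how alike these genes are. The first 48 coding bases, the length of 1 read, are printed with the bases that differ between the genes in capitals, and 9 of the 48 do. Those of *Actb* lie at chr5:143667318-143667365 on the minus strand of mm9 and occur once in the genome, and those of *Actg1* lie at chr11:120209358-120209405 on the minus strand and occur at 2 places.
*Actb*: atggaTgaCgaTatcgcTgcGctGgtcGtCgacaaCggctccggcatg
*Actg1*: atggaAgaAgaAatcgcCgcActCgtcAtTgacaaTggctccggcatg

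*Actb* (ENSMUSG00000029580.7), which encodes β-actin, spans 143664794 to 143668433 on chromosome 5 (minus strand). The ESC library had 7498 reads of it (7329 to 7670) and the NPC library 14592 (14356 to 14831). Scaled to the totals of the libraries, the NPC value was 1.89 times that of ESCs (1.84 to 1.94). *Actb* held about as many reads as the other members together, 51.7% of their sum in ESCs and 48.2% in NPCs. Per kilobase of exon and scaled to the total of the library (RPKM), its level of 655 in ESCs was number 43 among protein-coding genes, and its level of 1238 in NPCs was number 3.

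*Actg1* (ENSMUSG00000062825.8), the gene of γ-actin, spans 120207004 to 120209856 on chromosome 11 (minus strand). At its own place 241 ESC reads and 729 NPC reads were counted, a ratio of 2.94 (2.54 to 3.41). Of these reads 7 in ESCs and 20 in NPCs also lay in an annotated miRNA gene, AL669855.1, inside it. As shown further on, these counts hold a small part of the reads with *Actg1* sequence.

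Among the crosslinking proteins the α-actinins stood at opposite ends of the range. *Actn1* (ENSMUSG00000015143.8, chromosome 12 from 81268529 to 81361358, minus strand) encodes α-actinin 1, found in stress fibres and focal adhesions. It had 297 ESC reads and 1385 NPC reads, and its ratio of 4.53 (3.99 to 5.15) was the highest of the 9. *Actn4* (ENSMUSG00000054808.7, chromosome 7 from 29678267 to 29747359, minus strand) encodes the closely related α-actinin 4. With 1139 ESC reads and 1546 NPC reads, its ratio of 1.32 (1.22 to 1.42) was the lowest. Per kilobase of all annotated exons, *Actn4* stood above *Actn1* in ESCs, with an RPKM of 53.1 against 18.3, and below it in NPCs, with 69.9 against 82.7. The order in NPCs depends on the length used, since the annotated exons of *Actn4* come to 5026 bases and its mRNA to 3877. In the exons common to all coding mRNAs *Actn4* had 374 reads per kilobase in ESCs and 529 in NPCs, above the 92.7 and 454 of *Actn1* in both libraries. *Flna* (ENSMUSG00000031328.9, chromosome X from 71468800 to 71495159, minus strand) encodes filamin A, which joins filaments into a network and ties them to membrane proteins. Its 2058 reads in ESCs and 4376 in NPCs give a ratio of 2.06 (1.96 to 2.18).

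Among the proteins that act along the filament, *Myh9* (ENSMUSG00000022443.9, chromosome 15 from 77591017 to 77672605, minus strand) encodes the heavy chain of nonmuscle myosin IIA. It counted 1553 reads in the ESC library and 3367 in the NPC library, a ratio of 2.10 (1.98 to 2.24). *Cald1* (ENSMUSG00000029761.9, chromosome 6 from 34548500 to 34725473, plus strand) encodes caldesmon, which restrains myosin on the filament. Its 477 reads in ESCs and 1324 in NPCs give 2.69 (2.43 to 3.00).

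The adhesion genes lay close to each other. *Tln1* (ENSMUSG00000028465.10, chromosome 4 from 43544391 to 43575563, minus strand), the gene of talin 1, counted 746 ESC reads and 1735 NPC reads, a ratio of 2.26 (2.07 to 2.46). *Vcl* (ENSMUSG00000021823.8, chromosome 14 from 21748655 to 21852895, plus strand), the gene of vinculin, had 502 and 1221, a ratio of 2.36 (2.13 to 2.63). Their intervals overlap, so counting error alone covers the difference between them.

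**Figure D1:**
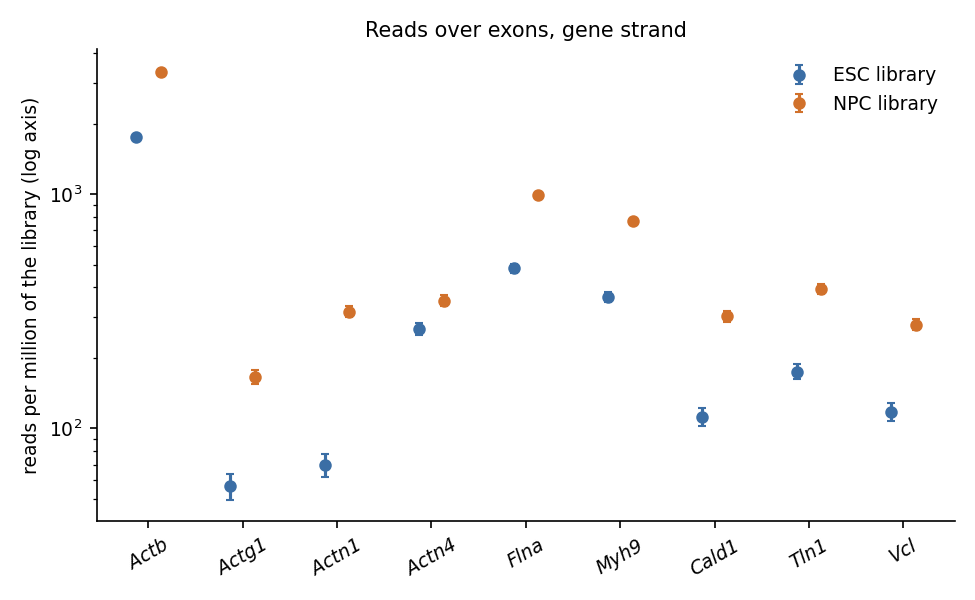
Reads over the exons of the 9 genes, scaled to the total of each library (RPM), on a log axis, with ESCs in blue and NPCs in orange and with exact Poisson 95% intervals. Every gene is higher in the NPC library, and *Actb* stands far above the other 8 in both.

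All 9 genes were higher in the NPC library, and 7 of them more than 2-fold. Among all genes with at least 10 reads, 24.6% were more than 2-fold higher in NPCs and 12.8% more than 2-fold higher in ESCs. Nothing is read from this count, since the members were chosen for it. Around the 2-fold mark, *Flna* stood just above at 2.06 and *Actb* just below at 1.89. On the log2 scale the ratio had a median of 1.17 over the members and 0.34 over all 14859 genes, so the members stood 0.84 above the median gene. *Actn4*, at a log2 ratio of 0.40, stood 0.06 above the median gene on that scale. Together the members made up 0.340% of all ESC reads and 0.688% of all NPC reads. On the opposite strand the 9 genes had 8 reads in the ESC library and 9 in the NPC library.

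The scaling sets how many members pass 2-fold. In the ESC library 53.6% of all reads, and in the NPC library 67.1%, lay over exons of protein-coding genes other than replication-dependent histone genes. Scaled by those reads, all log2 ratios move by -0.33, and 3 of the 9 members passed 2-fold, beside 16% of all genes. *Actn1*, *Actg1* and *Cald1* had log2 ratios of 1.85, 1.23 and 1.11 on that scale, and *Actn4* one of 0.07 (-0.04 to 0.18), an interval that includes no difference. With each start position counted once, 1 of the 9 passed, *Actn1*, beside 17.1% of all genes.

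In the order of RPKM, which divides by the length of all annotated exons, *Actb* came first in both libraries and *Cald1* last. In ESCs *Actn4* at 53.1 and *Flna* at 51.3 followed *Actb* with overlapping intervals, then *Myh9* at 28.1. *Vcl* at 22.5, *Actg1* at 21.2, *Actn1* at 18.3 and *Tln1* at 17.8 each overlapped the next in order, and *Cald1* ended it at 14.5. In NPCs *Flna* at 106 and *Actn1* at 82.7 followed *Actb*, each apart from its neighbours. *Actn4* at 69.9, *Actg1* at 62.3 and *Myh9* at 59.2 each overlapped the next, *Vcl* followed at 53.1, and *Tln1* at 40.2 and *Cald1* at 39.1 overlapped. Annotated exons exceed the mRNA used here most in *Myh9*, with 12928 bases against 7433, and next in *Cald1*, with 7687 against 4777. In *Actb* they come to 2679 against 1920. Another order therefore follows from the mRNA alone.

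Reads that match the mRNA exactly, as RPM per 1000 windows of 48 bases in it, put *Actb* first and *Actg1* next in both libraries. *Actg1* stood at 139.7 in ESCs and 451 in NPCs on this scale. In ESCs *Actn4*, *Flna* and *Myh9* followed at 62.5, 55.5 and 46.6, each apart from the next. *Cald1* at 21.9, *Vcl* at 21.8, *Tln1* at 19.4 and *Actn1* at 17.0 each overlapped the next. In NPCs *Flna* at 114 and *Myh9* at 100.01 came next, and *Actn4* at 75.4 and *Actn1* at 73.6 overlapped. *Cald1* at 61.2, *Vcl* at 51.6 and *Tln1* at 44.3 ended the order, so on this scale *Cald1* was not last in either library and *Actn1* stood below *Myh9* in NPCs. These windows include those across an exon junction, which hold nearly no reads in the genes other than the actins. *Tln1* has 1848 of them among 8346 windows, and *Cald1* 462 among 4730. Close places in this order therefore depend on the windows used, and the order over windows within exons was not computed.

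Reads were aligned to the genome without splicing, so a read across an exon junction has no place at its own gene. A processed copy of the gene, which lacks introns, can hold it. The 48-base window across a junction with the most reads is printed for each actin, with the bases after the junction in capitals. That of *Actb*, from position 1074 of the mRNA, spans 143665593 to 143665765 of chromosome 5 and occurs once in mm9 as an unbroken run, and 303 reads in ESCs and 435 in NPCs carried it. That of *Actg1*, from position 417, spans 120208642 to 120208975 of chromosome 11 and occurs unbroken at 6 places, with 5 reads in ESCs and 75 in NPCs.
*Actb* junction: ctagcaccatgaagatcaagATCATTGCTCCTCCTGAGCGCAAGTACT
*Actg1* junction: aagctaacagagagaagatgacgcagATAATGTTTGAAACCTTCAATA

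Reads were then taken by sequence, wherever they had been placed, when their 48 bases matched the mRNA of a member exactly, and 296 reads in ESCs and 579 in NPCs that match both actin mRNAs were left out. For *Actb* 8864 reads in ESCs and 17720 in NPCs matched, and 81.1% and 79.8% of them were placed at the gene. For *Actg1* 1109 and 3686 matched, and just 11.9% (10.1 to 14.0%) and 13.2% (12.1 to 14.3%) were placed at the gene. For the other genes at least 98.4% of the matching reads were at the gene in each library. Reads across a junction with at least 8 bases on each side made up 958 of the *Actb* reads in ESCs and 1410 in NPCs, all of them placed away from the gene. For *Actg1* they were 199 and 514, again with 0 at the gene. Such reads were nearly absent for the remaining 7 genes, whose junction windows do not occur unbroken in mm9, with 1 read, of *Myh9* in NPCs.

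**Figure D2:**
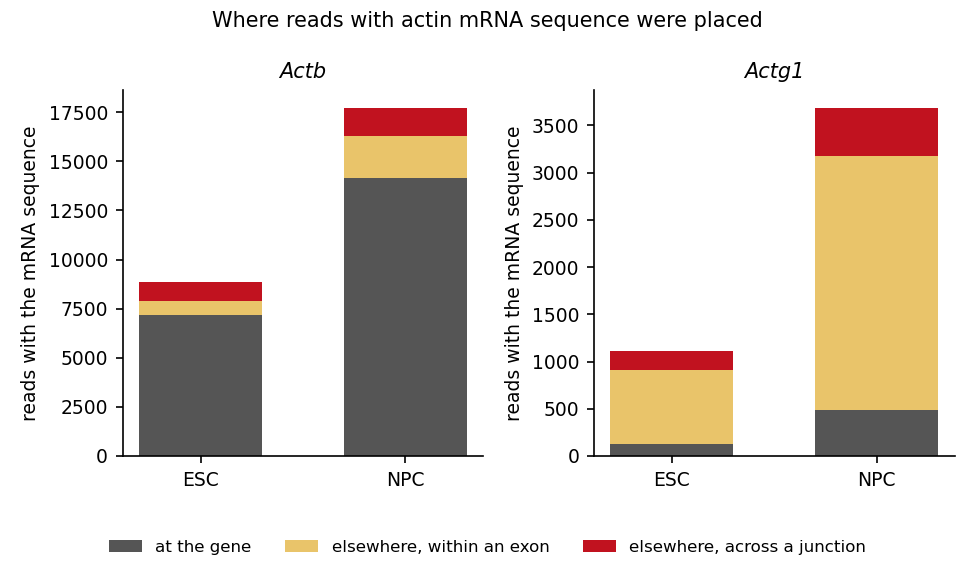
Number of reads whose 48 bases match the *Actb* mRNA (left) or the *Actg1* mRNA (right) exactly, in each library, split by placement at the gene (grey), at another place from within an exon (yellow) or at another place across an exon junction (red). Most *Actb* reads lie at the gene and most *Actg1* reads do not.

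Away from the actin genes, reads with actin sequence lay at 20 places, 15 of them with at least 10 such reads in the pooled libraries. The place with the most was Gm15725, a pseudogene on the plus strand of chromosome 16 that overlaps *Lrrc58*, with matching reads from 37883118 to 37884146. There 1366 of 1471 reads in ESCs and 2972 of 3220 in NPCs matched *Actb*, and 812 and 1078 of the reads crossed a junction of its mRNA. The places with the most *Actg1* reads were Gm8399 on chromosome 13, with 360 in ESCs and 1152 in NPCs, and Gm12715 on chromosome 4, with 342 and 1085.

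Taken by sequence the NPC to ESC ratio of *Actb* was 1.94 (1.89 to 1.99) and that of *Actg1* 3.23 (3.02 to 3.45), close to the ratios at the genes. Reads whose 48 bases occur once in mm9 gave 1.85 (1.80 to 1.91) for *Actb*, with 7038 and 13437 reads. For *Actg1* they gave 1.14 (0.79 to 1.64), with 59 and 69 reads, an interval that includes no difference. In the mRNA of *Actg1* just 19 of the 1576 windows within an exon occur once (1.21%), against 1377 of 1638 in that of *Actb* (84.1%) and at least 98.4% in the other genes. Reads of unique sequence that began in an exon of this mRNA numbered 28 in ESCs and 48 in NPCs, a ratio of 1.66 (1.02 to 2.75). Those of them that also ended in that exon, in the 19 windows, numbered 7 in ESCs and 20 in NPCs, a ratio of 2.77 (1.13 to 7.76). Reads of unique sequence that began outside the exons of the mRNA, in parts that other *Actg1* transcripts keep, numbered 31 and 21, a ratio of 0.66 (0.36 to 1.18). For the other 7 members, reads of unique sequence moved the ratio by less than its counting error.

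The level of *Actb* relative to *Actg1* depends on the same choice. By RPKM it was 30.9 in ESCs and 19.9 in NPCs, and by reads with the sequence of the mRNA per window it was 7.93 and 4.77. In windows of unique sequence it was 13.0 and 8.68, with few *Actg1* reads. The ratio was lower in NPCs in these 3, and β-actin RNA was the more abundant in each. Reads of unique sequence over all annotated exons went the other way, with 119 *Actb* reads for each of *Actg1* in ESCs and 195 in NPCs. That count and the unique windows rest on few *Actg1* reads, and the interval of their ratio in the windows includes the ratio of *Actb*.

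**Figure D3:**
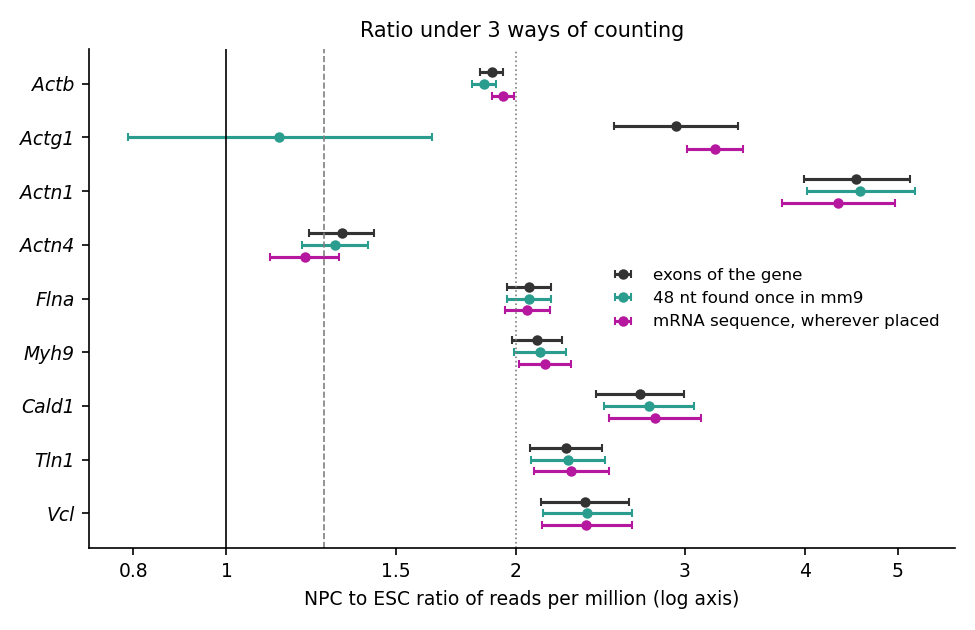
NPC to ESC ratio of scaled reads on a log axis with 95% intervals, from all reads over the exons (black), reads whose 48 bases occur once in mm9 (green) and reads with the mRNA sequence wherever placed (purple), with the dashed line at the median gene, 1.26, and the dotted line at 2. The 3 values lie close together for every gene except *Actg1*, where reads of unique sequence give 1.14.

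The place of a read along the mRNA was not used to choose the genes. On the mRNA with the longest coding sequence, 83.0% (82.2 to 83.9%) of the *Actb* reads in ESCs and 76.9% (76.2 to 77.6%) of those in NPCs began before the midpoint. The median over protein-coding genes with at least 100 reads was 54.5% in ESCs (4598 genes) and 53.0% in NPCs (5840 genes). Taken by sequence wherever placed, the *Actb* shares were 73.1% and 69.4%, still above those medians. With each start counted once they were 64.5% and 61.3%, and the medians were not computed in that way. The 3′ untranslated region (UTR) of *Actb*, 35.7% of the mRNA, held 7.16% of its ESC reads and 7.80% of its NPC reads.

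*Cald1*, and *Actg1* by most ways of counting, leaned the other way. In *Actg1* 39.1% of the ESC reads at the gene and 27.8% of the NPC reads began before the midpoint, and by sequence 42.0% and 34.3%. With each start counted once the *Actg1* shares were 48.7% and 41.9%, and reads of unique sequence, which most of its mRNA cannot give, turned them to 78.6% and 95.8% on 28 and 48 reads. In *Cald1* the part before the midpoint held 21.0% (17.4 to 25%) and 23.6% (21.3 to 26.0%), a share below which 2.59% of genes lay in ESCs and 3.44% in NPCs. Its 3′ UTR, 46.9% of the mRNA, held 74.7% of its ESC reads and 74.0% of its NPC reads. The *Cald1* mRNA used here holds a coding insert of 702 bases, described further on, with 4 reads in ESCs and 18 in NPCs. The midpoint, the rank among genes and the 46.9% all depend on that mRNA, and the shares without the insert were not computed. The remaining 6 genes lay between 41.6% and 59.1%.

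**Figure D4:**
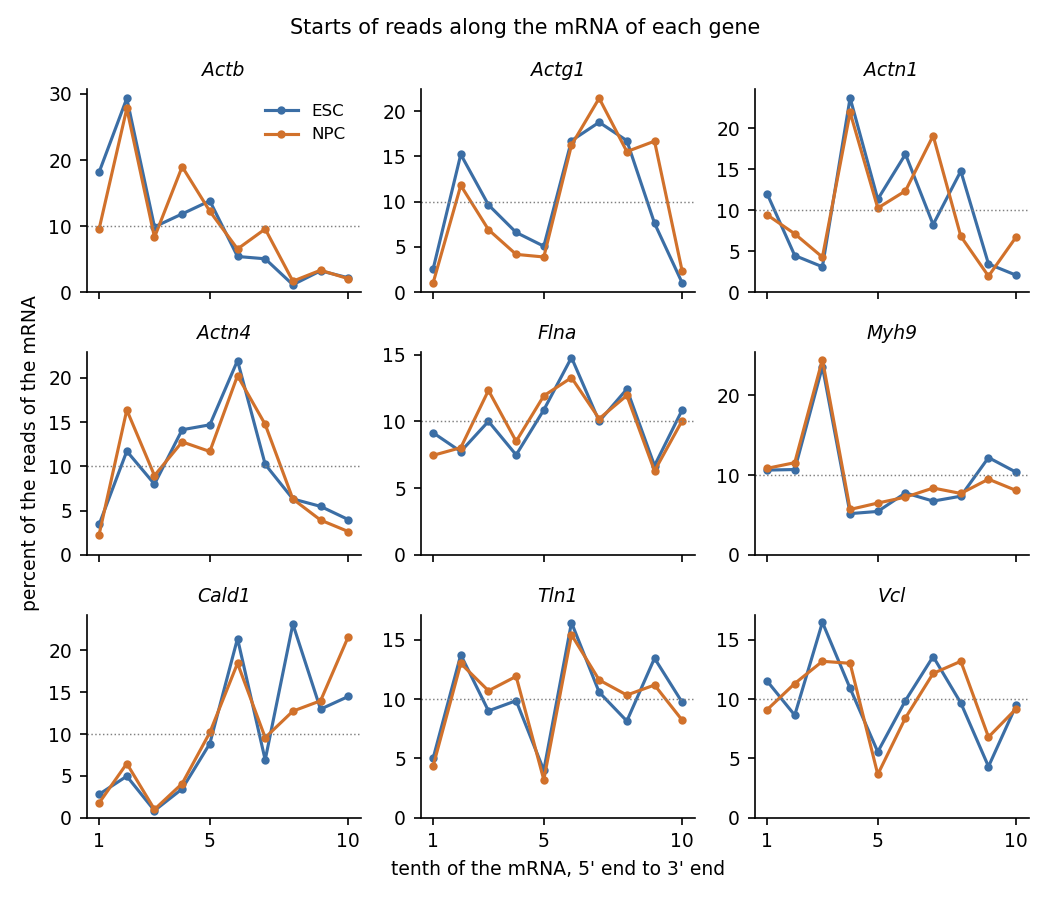
Percent of the reads of each gene that begin in each of 10 equal parts of its mRNA, from the 5′ end (1) to the 3′ end (10), with ESCs in blue, NPCs in orange and a dotted line at an even spread. The part with the most reads is the same in both libraries for 8 of the 9 genes, the exception being *Cald1* and *Vcl* being tied with a later part in NPCs, and *Actb* reads lie toward the 5′ end.

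Reads piled up at single starts, and often at the same ones. The start with the most reads was identical in both libraries for 4 of the 9 genes, *Actg1*, *Actn4*, *Flna* and *Myh9*. In *Myh9* position 1999 of the mRNA, in the coding sequence, held 92 ESC reads and 189 NPC reads, 6.27% and 5.83% of its reads. In *Flna* position 5554 held 45 and 89, and in *Actn4* position 2455 held 41 and 124, or 3.81% and 8.42%. *Actb* reads came from 678 distinct starts in ESCs and 820 in NPCs, or 11.1 and 17.8 reads a start, whereas the other genes had between 1.71 and 3.39. The windows of 48 bases that begin at these coding starts are printed for *Myh9* (chr15:77613854-77613901) and *Flna* (chrX:71475240-71475287), both on the minus strand and each found once in mm9, with the first base of the read in capitals.
*Myh9* start: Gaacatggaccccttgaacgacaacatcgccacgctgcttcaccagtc
*Flna* start: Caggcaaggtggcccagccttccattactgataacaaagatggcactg

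Introns of the members held reads too, as unspliced RNA gives. Over protein-coding genes with at least 100 reads, the median density of reads in introns was 2.88% of that in exons in ESCs and 2.71% in NPCs. *Myh9* lay above this, at 5.07% in ESCs (407 reads) and 3.77% in NPCs (661 reads). So did *Tln1*, at 4.12% (63 reads) and 3.58% (129 reads), and *Flna* was at 2.60% and 3.05%. On the introns of the mRNA alone *Myh9* stood at 3.10% and 2.23% and *Tln1* at 3.47% and 2.93%. *Cald1* lay far below the medians, at 0.71% and 0.81%. *Actn4* was at 1.14% and 1.32%, and at 2.43% and 2.74% without the first intron. The medians over genes were not computed in these other ways. Repeat reads had been filtered out, whereas the intron lengths here include repeats, and the exon densities lack reads across junctions. Each percentage therefore also depends on the repeats and the number of exons of its gene, and none was corrected for them.

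The members were chosen on their exon ratios, which favours an exon ratio above that of the introns, so the quotients that follow are descriptions. In *Actn1* exons and introns differed between the libraries by different amounts. Its introns had 159 reads in ESCs and 302 in NPCs, a ratio of 1.84 (1.52 to 2.25). The exon ratio, taken in the same way from the start of each read, was 2.41 times that (1.90 to 3.05). With each start position counted once it was 1.46 times. In *Myh9* the exon ratio was 1.34 times the intron ratio (1.17 to 1.55), and 1.02 times with each start counted once. In *Vcl* it was 1.49 times (1.16 to 1.90), and 1.12 times without the first intron.

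For *Actn4*, *Flna*, *Cald1* and *Tln1* the interval of this quotient included 1, and the introns of these genes held more reads in NPCs, as their exons did. *Cald1* introns had 74 reads in ESCs and 233 in NPCs, a ratio of 3.06 (2.34 to 4.03). *Flna* introns had 94 and 233, a ratio of 2.41 (1.89 to 3.09). The introns of *Actb* span 961 bases beyond all annotated exons and had 45 reads in each library, a ratio of 0.97 (0.63 to 1.5), and the exon ratio was 1.95 times that (1.26 to 3.01). It was 1.08 times when the introns of the mRNA itself were taken, which other transcripts keep in part. *Actg1* has 194 bases of intron beyond its annotated exons, too few to compare.

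**Figure D5:**
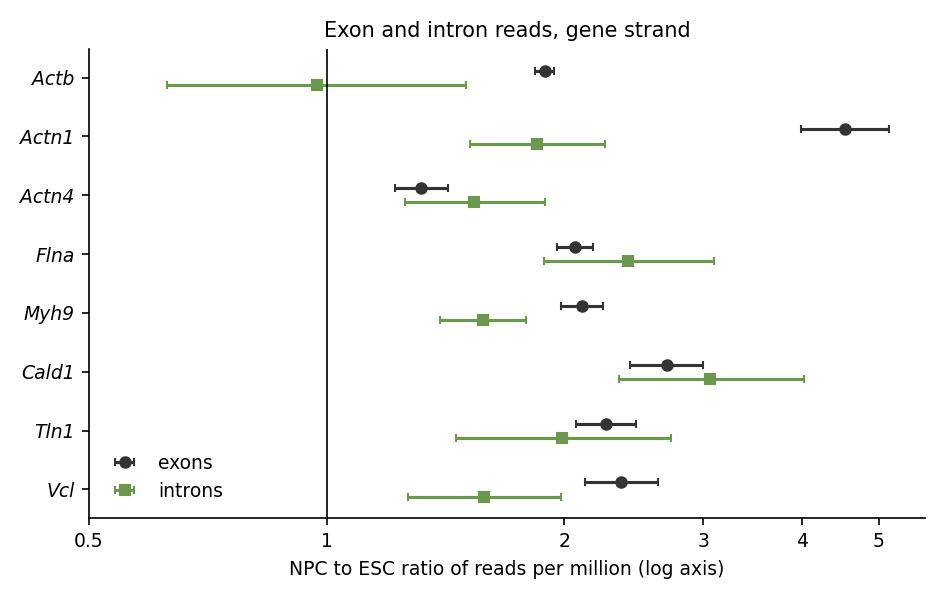
NPC to ESC ratio of scaled reads in exons (black circles) and in introns (green squares) of 8 of the genes, on a log axis, with 95% intervals; *Actg1* is left out because it has 194 bases of intron. The intervals are apart for *Actb*, *Actn1*, *Myh9* and *Vcl*, in genes chosen on the exon ratio.

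Exons that some annotated mRNAs leave out were read from their bodies alone. *Cald1* has a long form of smooth muscle and a short form of other cells, and the longest annotated coding sequence holds an insert of 702 coding bases in 4 pieces between 34696016 and 34697969 that shorter mRNAs lack in part or whole. The insert had 4 reads in ESCs and 18 in NPCs, a density of 8.21% (2.20 to 21.7%) and 12.9% (7.54 to 20.7%) of that in the exons common to all its coding mRNAs. In *Actn4* the annotation holds a pair of alternative exons of 86 bases each. The one at 29696509 to 29696594 held 21 ESC reads and 41 NPC reads, 65.4% (40.3 to 101%) and 90.2% (64.4 to 123%) of the common density. The one at 29694922 to 29695007 had 7 and 4, or 21.8% (8.73 to 45.1%) and 8.80% (2.39 to 22.6%). In *Flna* a segment of 123 bases at 71473191 to 71473313 stood at 29.8% (13.6 to 56.6%) in ESCs and 75% (55.2 to 99.7%) in NPCs, on 9 and 48 reads. The intervals of the libraries overlap in all of these. Since starts pile up, the density of a single exon can differ from that of its neighbours for that reason, which was not tested.

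The promoters were looked at for the CArG box, a pattern that reads alike on both strands. The RefSeq table of GRCm38.p6 holds 9 promoters for 8 of the members and none for *Actb*, whose promoter was therefore not searched. Each promoter has 250 bases before and 50 after the start, and 2 of these 8 members had the box. Over all 32851 promoters of that length 535 (1.63%) had it. The box lies 90 to 81 bases before the start of *Actg1* (chr11:120348551-120348610, minus strand) and 227 to 218 bases before that of *Vcl* (chr14:20929148-20929205, plus strand), and it is printed in capitals with its surroundings. A match is a description of the letters and not a site.
*Actg1* promoter: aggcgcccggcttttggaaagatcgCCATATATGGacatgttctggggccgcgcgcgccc
*Vcl* promoter: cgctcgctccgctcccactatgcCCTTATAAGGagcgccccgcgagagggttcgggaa

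The wider pathway was read from 8 lists of related genes, in which 133 of 140 genes had at least 10 reads. Of these 133 genes 49 (36.8%) were more than 2-fold higher in NPCs and 5 more than 2-fold higher in ESCs, beside 24.6% and 12.8% of all genes, with a median log2 ratio of 0.69, between the 0.34 of all genes and the 1.17 of the members. The relatives of the members were split. Of the crosslinkers and membrane linkers 5 of 16 (31.2%) passed 2-fold in NPCs and 3 in ESCs, a share near that of all genes. Filamin C (*Flnc*), a relative of *Flna* found in muscle, had 72 ESC reads and 587 NPC reads, a ratio of 7.91 (6.19 to 10.3). L-plastin (*Lcp1*), a filament bundler of blood cells, had 1 and 98 reads, and *Pls1*, the plastin of intestinal brush borders, 43 and 19.

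Among adhesion genes 9 of 25 (36%) passed 2-fold in NPCs and 0 in ESCs, beside the 24.6% and 12.8% of all genes. Integrin β1 (*Itgb1*), the receptor chain that talin binds, had 647 reads in ESCs and 2114 in NPCs, a ratio of 3.17 (2.90 to 3.47), and integrin α6 (*Itga6*) had 1487 and 1599, a ratio of 1.04 (0.97 to 1.12). α-parvin (*Parva*) and zyxin (*Zyx*), both of focal adhesions, had ratios of 6.29 (4.66 to 8.65) and 5.51 (3.81 to 8.19).

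Against the same 24.6% and 12.8%, 3 of 10 tropomyosins, calponins and transgelins passed in NPCs and 0 in ESCs, a share near that of all genes, with *Tpm4* at a ratio of 5.23 (4.56 to 6.02) and *Tpm1* at 4.35 (3.81 to 4.98), beside 1.09 (1.00 to 1.19) for *Cnn3*. Of the genes of actin assembly and turnover 11 of 31 (35.5%) passed in NPCs and 0 in ESCs. Cofilin (*Cfl1*), which severs filaments, had 1470 reads in ESCs and 1450 in NPCs, whereas its partner *Wdr1* had 282 and 1947, a ratio of 6.70 (5.91 to 7.62), and gelsolin (*Gsn*) 155 and 884. Of 13 genes of the SRF pathway 6 (46.2%) passed in NPCs and 2 in ESCs. *Cyr61* and *Ctgf*, secreted targets of the pathway, had ratios of 4.26 (3.59 to 5.06) and 3.21 (2.92 to 3.54). *Fos* was 3.45 times higher in ESCs (2.81 to 4.26). *Mcl1*, the gene of the SRF list with the most reads, was 2.10 times higher in ESCs (1.97 to 2.24). In the cadherin junction 4 of 13 (30.8%) passed in NPCs and 0 in ESCs, N-cadherin (*Cdh2*) with 8 and 156 reads. *Ctnnd1*, the catenin gene of that list with the most reads, had 1398 and 3090. The muscle actin *Acta2* had 27 and 331 reads.

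Markers of other cells that these cultures can hold were set beside the members. Of 14 genes of extraembryonic endoderm 13 were more than 2-fold higher in NPCs, and their sum was 829 RPM (reads scaled to the library total) in ESCs and 15587 in NPCs. The sum of 10 pluripotency genes was 2270 and 642 RPM. Of the 10 neural progenitor genes 9 were annotated under these names, and their sum was 295 and 155 RPM. *Sox2*, which is also in the pluripotency list, made that fall with 879 and 134 reads, and without it the sum was 89.7 RPM in ESCs and 124 in NPCs. In that sum *Cdh2*, which is also in the list of the cadherin junction, carried nearly all of the rise, with 8 and 156 reads. *Nes* had 66 and 121, *Pax6* 1 and 12 and *Sox3* 0 and 5. *Msi1* had 99 and 60 reads, *Tubb3* 109 and 87 and *Ncam1* 100 and 104. The library labelled NPC showed more endoderm than neural marker RNA with or without *Sox2*, and so did the ESC library. *Col4a1* held 20753 of the 68580 endoderm reads in NPCs, so these sums depend on which genes the lists hold. The fibroblast list, for the feeder layer, was at 68.8 RPM in ESCs and 68.2 in NPCs, with *Lum* at 0 in both libraries. That sum joins genes that went opposite ways, *Col1a2* with 51 and 165 reads against *Thy1* with 79 and 12 and *Pdgfrb* with 93 and 21, so it does not show the feeder RNA to be equal. The list of smooth and cardiac muscle was at 85.9 and 163 RPM, with *Actg2* at 0 in both. *Acta2* carried that difference, and without it the sum was 79.6 and 88.2 RPM, with *Tagln* at 218 and 217 reads and *Des* at 81 and 37. Whether endoderm or muscle cells take part in the ratios of the members was not tested.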

How the data were processed

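A strand-specific library was sequenced for the NPA RNA of R1 ESCs and another for that of day 7 NPCs, so each cell type has 1. RNA that bound to Oligotex was removed, ribosomal RNA was depleted in 1 round of RiboMinus, and libraries were made from 2 µg of RNA with RNase III, fragments of 150 to 250 bp and 15 PCR cycles. Per the submitters' processing notes reads were aligned with Bowtie to mm9. The authors kept 1 placement for a read with several, did not align across junctions, and filtered out mitochondrial, ribosomal and repeat reads. They deposited read placements, 1 line per read with 48 nt of sequence, which is no normalized unit.

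From these placements, reads overlapping an exon by at least 1 base on the strand of the gene were counted for all 37310 genes of GENCODE M1, and scaled by 4271306 and 4399729 reads. An exact search of mm9 on both strands found the sequence of a read once for 78.2% of ESC reads and 83.2% of NPC reads. Ratios of single genes add no read, and those behind calls, lists and the median gene add 1. Intervals are exact Poisson for counts, Clopper-Pearson for shares and conditional binomial for ratios. No test was made between single libraries. The members and all lists were chosen with earlier results of these data known. In each list the genes named come from a rule, namely those with the most reads and those with the largest ratio in each direction among genes with at least 50 reads, and not every gene it picks is given. An exon of *Vcl* for metavinculin was sought in the annotation and is not reported here. Counting, lookup and intervals were tested on simulated data. Python 3.11.15, NumPy 2.4.6, SciPy 1.17.1, pysam 0.24.0 and matplotlib 3.10.9 were used. Some genes, sequences and 1 list are not reported here. The tiling arrays of the study were not used here.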

Additional observations from a re-analysis of the deposited data

How the results depend on the processing

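All 9 members stayed higher in the NPC library under each of the 63 alternative values of their ratios, which count each start once, rescale the libraries, assign reads by their 5′ end, keep reads of unique sequence or coding parts, or follow the mRNA sequence wherever it was placed (chosen after seeing the data), as genes chosen for being higher. In 3 of the 63 the interval included no difference, namely *Actg1* by reads of unique sequence at a log2 ratio of 0.18 (-0.34 to 0.71) and *Actn4* under both other scalings, at 0.07 (-0.04 to 0.18) and 0.06 (-0.05 to 0.17). The number of members over 2-fold, 7, became 3 under both other scalings and 1 with each start counted once. Their median log2 ratio of 1.17 became 0.85 and 0.84 under these scalings and 0.77 with each start counted once, while the log2 ratio of the median gene became 0.01, -0.003 and 0.24 in turn. In the list of actin assembly the 11 genes over 2-fold became 4, 5 and 5 with starts once and under the scalings by coding reads and by the median of ratios. In the cadherin junction the 4 became 1, 2 and 1. The share of all genes over 2-fold, 24.6%, became 17.1%, 16% and 15.7% in the same order, so the counts of both lists were then near or below it. Over all lists the 49 became 29 with starts once and 32 by the median of ratios. The intron density, with a median over the members of 2.32% of the exon density in ESCs and 1.32% in NPCs, became 3.67% and 5.07% with starts once, 3.27% and 3.01% without the first intron, and 3.10% and 2.23% on the introns of the mRNA, an alternative chosen after seeing the data. Of 72 alternative values of the shares of single members before the midpoint 46, and of 27 of the exon to intron quotients 21, stayed inside the interval of the reported value. Left out after seeing the data, *Sox2* turned the NPC to ESC ratio of the neural markers from 0.52 to 1.39, and *Acta2* moved that of the muscle markers from 1.90 to 1.11. The cause of these moves was not tested. No paired analysis was possible because each cell type has 1 library. For the same reason no library could be left out.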
